A study of Mus musculus with 6 samples.

Results

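*Slc26a4*, *Best2*, *Cldn2*, *Gja1*, *Optc*, *F5* and *Notum* are 7 genes known for ion transport across, junctions between, or secretion from the epithelium at the retinal margin and related fluid-transporting epithelia. They were picked by name, with earlier results of these same samples in view, from the 701 genes of the table analysed here, and all 7 were found in it by symbol. The table is itself a selection, since the authors kept genes with a p-value under 0.05 between the genotypes in these samples. The size and direction of the genotype difference are therefore given as a description with no test, and so is the spread between samples.

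RNA was sequenced from the peripheral ventrotemporal (VT) retina of wild-type (WT) mice and of *Slc6a4-/-* mice, which constitutively lack the serotonin transporter SERT, both labelled as strain C57BL/6. Both genotypes were at postnatal day 56 (8 weeks), and both were taken 24 hours after crush of the left optic nerve (ONC), so that no sample is from an uninjured eye. There were 3 samples per genotype, each a pool of the VT retinae of 3 mice. The WT and *Slc6a4-/-* animals came from separate purchased lines, so that genotype and line cannot be told apart, and the study used both sexes without giving the mix in a pool.

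The ciliary epithelium continues from the rim of the retina as a bilayer, with an inner non-pigmented and an outer pigmented sheet joined face to face by gap junctions. It moves ions and water from the blood side into the eye to form aqueous humour, and the non-pigmented sheet also secretes proteins into the vitreous. The retinal margin is patterned by Wnt signalling during development. In bulk tissue of this kind, fewer cells of a type and less RNA per cell cannot be told apart.

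The library totals, recovered from the deposited values, ranged from 76.1 to 93.8 M reads, and the 701 genes held 1.34% to 1.59% of them. Values below are scaled counts, the read count of a gene divided by the relative size of its library. Differences are between the genotypes' means of log2(scaled count + 1), each with its standard error (SE) from 3 samples per genotype, and a geometric fold is that difference taken off the log scale. The ratio of arithmetic means is given beside it, since a single low pool weighs more on the log scale. *Slc6a4* itself had 1516, 1397 and 1548 reads in the WT pools and only 0, 0 and 3 reads in the *Slc6a4-/-* pools, as the labels require. Photoreceptor, bipolar and ganglion cell markers in the table (*Opn1sw*, *Opn1mw*, *Grm6* and *Nefl*) summed to between 18207 and 32220 scaled counts per sample, so that retina was present in all 6.

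All 7 genes had the higher mean in *Slc6a4-/-* retina, by 1.20 to 1.74 on the log2 scale, against 56.6% of the 701 genes. In 3 of the 7 (*Slc26a4*, *Best2* and *Optc*) every *Slc6a4-/-* sample lay above every WT sample, where 36.2% of the 701 genes were higher without overlap and 60.1% did not overlap in either direction. Nothing about these genes can be read from those counts, as the table was chosen on the same contrast. Given the spread between pools, none of the 7 differences reached 2 SE. Each was between 1.43 and 1.81 times its unpaired SE, while 463 of the 701 genes (66.0%) differed by at least 2 SE. The spread between pools was mostly within WT. WT sample 1 had 5.05 to 10.1 times the level of WT sample 3 for each gene, whereas the highest *Slc6a4-/-* sample had 1.09 to 1.84 times the level of the lowest.

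The regions just upstream of the start sites are shown for 3 of these co-varying genes, because they held a match to 1 of the motifs searched. RefSeq gave a promoter window (250 bases before to 50 after the start, GRCm38.p6) for 5 of the 7, with no entry for *Best2* and *Notum*. The 250 upstream bases are printed 5′ to 3′ on the gene's strand, with the motif match in capitals.
Slc26a4, chr12:31559985-31560234, minus strand: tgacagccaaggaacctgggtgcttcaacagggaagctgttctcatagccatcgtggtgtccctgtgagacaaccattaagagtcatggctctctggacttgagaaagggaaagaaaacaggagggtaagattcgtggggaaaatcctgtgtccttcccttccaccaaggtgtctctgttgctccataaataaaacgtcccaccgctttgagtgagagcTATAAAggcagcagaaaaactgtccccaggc
Cldn2, chrX:139800558-139800807, plus strand: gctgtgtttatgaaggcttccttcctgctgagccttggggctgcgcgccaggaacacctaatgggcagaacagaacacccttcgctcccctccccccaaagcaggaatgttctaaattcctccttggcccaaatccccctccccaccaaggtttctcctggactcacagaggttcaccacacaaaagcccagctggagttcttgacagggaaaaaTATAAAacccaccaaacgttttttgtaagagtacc
Gja1, chr10:56377050-56377299, plus strand: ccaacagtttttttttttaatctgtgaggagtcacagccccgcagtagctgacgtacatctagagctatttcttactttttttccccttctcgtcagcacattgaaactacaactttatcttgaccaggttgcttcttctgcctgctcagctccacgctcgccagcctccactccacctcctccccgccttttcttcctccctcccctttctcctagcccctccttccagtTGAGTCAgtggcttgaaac

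The capitals mark a TATA box (TATAAA) in *Slc26a4* and *Cldn2*, whose first base lies at -31 and -35 from the start, and an AP-1 site (TGANTCA, found as TGAGTCA) at -19 in *Gja1*. On either strand, TATAAA occurred in 13.6% and TGANTCA in 7.81% of the 32851 windows of the same length. The TCF/LEF letters CTTTGAT (3.73% of windows), the OTX letters TAATCC (7.06%), the M-box letters CATGTG (14.2%) and CACGTG (7.15%) were found in none of the 5 windows. These motifs do not contain one another. The GC content of the 5 windows was 47.7% to 57.7%, around the median of 52.7% over all windows. No searched motif was thus common to all 5 windows, with TATAAA shared by *Slc26a4* and *Cldn2* only. The matches describe letters in a window, not bound sites.

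Ion transport was represented by *Slc26a4* and *Best2*. *Slc26a4* (ENSMUSG00000020651, GRCm38 chr12:31519827-31559969, minus strand) encodes pendrin, an exchanger of chloride, iodide and bicarbonate known from the inner ear, thyroid and kidney. WT samples 1, 2 and 3 had 605.9, 339.4 and 59.9 scaled counts of it, whereas the *Slc6a4-/-* samples had 1035, 689.8 and 657.8 (values are always given in the order of the sample numbers). The genotypes did not overlap, but the highest WT pool lay close to the lower *Slc6a4-/-* pools, and WT sample 3 was far below all others. WT pools averaged 335.1 ± 273.0 (SD, n = 3) and *Slc6a4-/-* pools 794.2 ± 209.2 (SD, n = 3), a ratio of arithmetic means of 2.37. On the log2 scale the difference was 1.74 (SE 1.02), a geometric fold of 3.35.

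*Best2* (ENSMUSG00000052819, chr8:85007202-85014531, minus strand) encodes bestrophin-2, a calcium-activated anion channel of the non-pigmented ciliary epithelium. The WT pools had 134.9, 89.3 and 17.9 scaled counts and the *Slc6a4-/-* pools 173.0, 194.2 and 162.2. Here too the groups were separate, and the *Slc6a4-/-* pools were close to each other. The arithmetic means of 80.7 ± 59.0 and 176.4 ± 16.3 had a ratio of 2.19, and the log2 difference was 1.53 (SE 0.87), a geometric fold of 2.88. It was the 1 gene of the 7 whose highest value was not in *Slc6a4-/-* sample 1.

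Junctions were represented by *Cldn2* and *Gja1*. *Cldn2* (ENSMUSG00000047230, chrX:139800828-139811386, plus strand) encodes claudin-2, a tight junction protein that forms pores for cations and water in leaky epithelia. The WT pools had 436.2, 263.7 and 53.6 scaled counts, and the *Slc6a4-/-* pools had 517.1, 476.2 and 382.5. The groups overlapped, since WT sample 1 was above *Slc6a4-/-* sample 3. Its arithmetic means, 251.2 ± 191.6 and 458.6 ± 69.0, had a ratio of 1.83, while the log2 difference was 1.30 (SE 0.91), a geometric fold of 2.47.

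*Gja1* (ENSMUSG00000050953, chr10:56377330-56402513, plus strand) encodes connexin 43, a gap junction protein that couples the pigmented and non-pigmented sheets and is also made by astrocytes and other retinal cells. Its values were 1109.6, 670.3 and 219.7 in WT and 1648, 1344 and 897.5 in *Slc6a4-/-*. WT sample 1 again exceeded *Slc6a4-/-* sample 3, so that the groups overlapped. The pools averaged 666.5 ± 444.9 and 1296.5 ± 377.3, a ratio of 1.95. The log2 difference, 1.20 (SE 0.74) or a geometric fold of 2.30, was the smallest of the 7 on that scale.

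Secreted products were represented by *Optc*, *F5* and *Notum*. *Optc* (ENSMUSG00000010311, chr1:133897199-133907999, minus strand) encodes opticin, a small leucine-rich repeat protein that the non-pigmented ciliary epithelium releases into the vitreous. It had 1055, 624.1 and 166.1 scaled counts in WT, and 1164, 1066 and 1103 in *Slc6a4-/-*. The *Slc6a4-/-* pools were nearly level, and the separation of the groups rested on a narrow gap between WT sample 1 and *Slc6a4-/-* sample 2, which closed under 2 other scalings (median-of-ratios and TMM factors over the table). The arithmetic means were 615.1 ± 444.6 and 1111 ± 49.4, with a ratio of 1.81, the smallest of the 7 on that scale. The log2 difference was 1.21 (SE 0.79), a geometric fold of 2.32.

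*F5* (ENSMUSG00000026579, chr1:164151838-164220277, plus strand) encodes coagulation factor V, the cofactor that speeds the conversion of prothrombin to thrombin. Its values were 756.0, 420.3 and 131.4 in WT, and 1217, 749.9 and 777.2 in *Slc6a4-/-*. *Slc6a4-/-* sample 2 was just below WT sample 1, which alone made the groups overlap. On average the pools had 435.9 ± 312.6 and 914.7 ± 262.1, a ratio of 2.10, and the log2 difference was 1.36 (SE 0.77), a geometric fold of 2.56.

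*Notum* (ENSMUSG00000042988, chr11:120653788-120661175, minus strand) encodes a secreted enzyme that inactivates Wnt proteins by removing their lipid and is itself induced by Wnt signalling. It was the gene with the fewest reads, with 61, 36 and 12 in WT and 115, 100 and 55 in *Slc6a4-/-*. Scaled, these were 66.4, 37.8 and 12.6 in WT, and 101.5, 92.5 and 56.1 in *Slc6a4-/-*, with WT sample 1 above *Slc6a4-/-* sample 3. Averages of 38.9 ± 26.9 and 83.3 ± 24.0 gave a ratio of 2.14, and the log2 difference was 1.31 (SE 0.73), a geometric fold of 2.49.

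**Figure D1:**
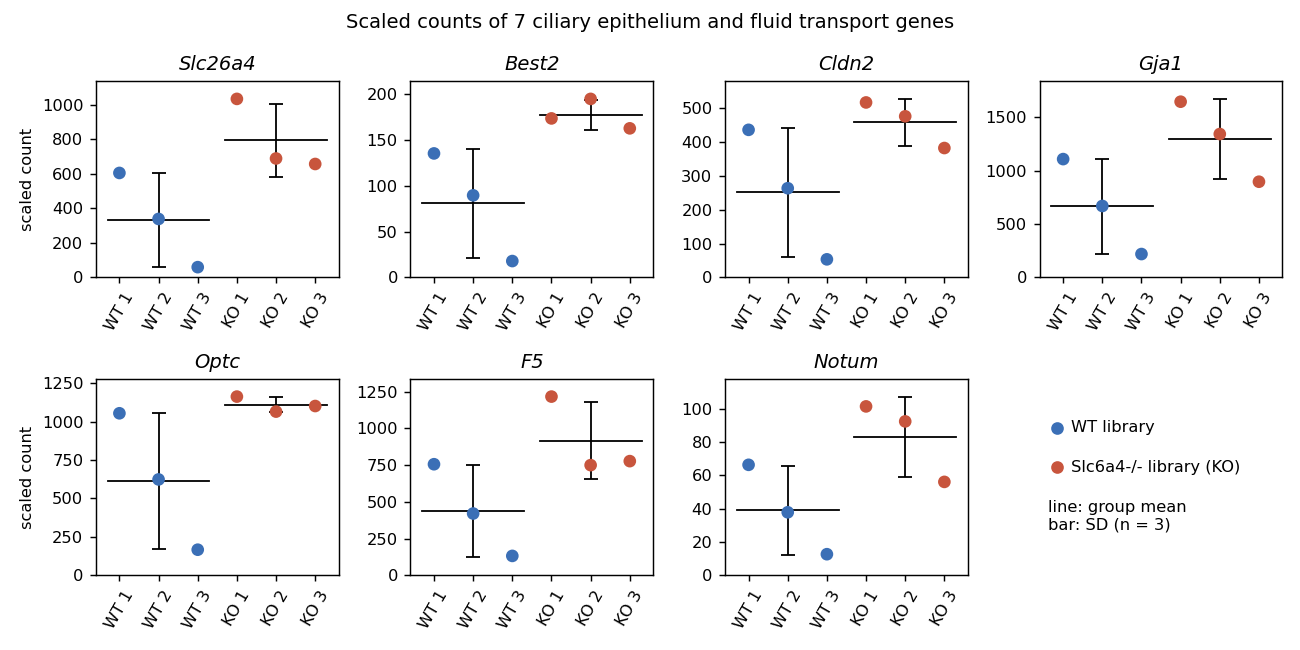
Scaled read counts on linear axes for each of the 7 genes, with 1 point per pool, a horizontal line at the mean of each genotype and a vertical bar of 1 SD (n = 3) to either side of it. WT sample 3 is the lowest point in every panel, at 59.9 for *Slc26a4* and 12.6 for *Notum*, and WT sample 1 reaches into or close to the range of the *Slc6a4-/-* pools.

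Compared per kilobase of exon, *Optc* was the most abundant of the 7, at 238.9 ± 172.7 scaled counts per kilobase in WT and 431.4 ± 19.2 in *Slc6a4-/-* (SD, n = 3). *Slc26a4* followed at 107.8 ± 87.8 and 255.5 ± 67.3. Next came *Cldn2* (75.5 ± 57.6 and 137.9 ± 20.8), *Gja1* (65.0 ± 43.4 and 126.4 ± 36.8) and *F5* (58.7 ± 42.1 and 123.1 ± 35.3). These last 3 did not differ from each other beyond their spread in either genotype, and their order changed between libraries. *Best2* lay lower, at 36.4 ± 26.6 in WT and 79.6 ± 7.35 in *Slc6a4-/-*, and *Notum* was lowest, at 16.2 ± 11.2 and 34.6 ± 9.98. *Optc* was first and *Best2* and *Notum* were the last 2 in all 6 libraries. *Slc26a4* was second in 5 libraries, and in WT sample 3 it lay at 19.3 per kilobase, below *Gja1* at 21.4.

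The spread between WT pools was wide for all 7 genes. The SD of log2(scaled count + 1) among WT samples was 1.73 for *Slc26a4*, 1.57 for *Cldn2*, 1.50 for *Best2*, 1.37 for *Optc*, 1.28 for *F5*, 1.19 for *Gja1* and 1.17 for *Notum*. The median over the 701 genes was 0.18. A WT SD at least as large as that of *Notum*, the lowest of the 7, was found in 36 of the 701 genes (5.14%), the 7 included. Among the 574 genes with a mean scaled count of at least 50 there were 15 (2.61%). Selection of the table on the genotype contrast favours genes with low spread within a genotype, so that these shares and medians are not a neutral comparison. Counting error from the reads alone would give an SD of 0.07 to 0.30 in WT. Among *Slc6a4-/-* pools the SD was 0.06 for *Optc*, 0.13 for *Best2*, 0.22 for *Cldn2*, 0.36 for *Slc26a4*, 0.39 for *F5*, 0.45 for *Gja1* and 0.45 for *Notum*, with a table median of 0.21. In that genotype the 7 genes were thus spread over the range of the table, with 6.85% to 83.5% of its genes below them. Whether the spread differed between the genotypes was not tested.

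**Figure D2:**
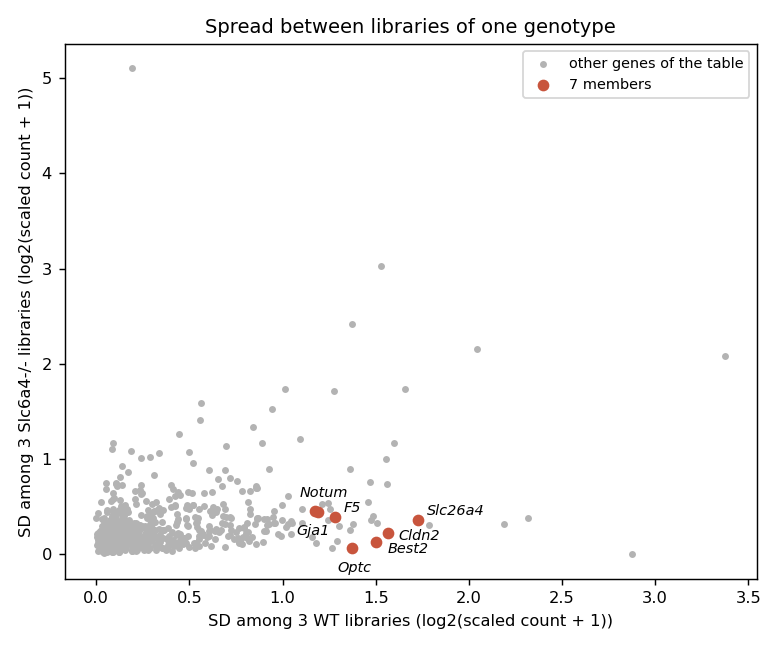
SD of log2(scaled count + 1) among the 3 WT pools on the x axis and among the 3 *Slc6a4-/-* pools on the y axis, with 1 point per gene of the table and the 7 genes in red. The 7 lie between 1.17 and 1.73 on the x axis and between 0.06 and 0.45 on the y axis, to the right of the mass of points.

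The 7 genes moved together between pools of 1 genotype. Each was highest in WT sample 1 and lowest in WT sample 3, as were 244 of the 701 genes (34.8%). *Slc6a4-/-* sample 1 was the highest *Slc6a4-/-* pool for 6 of the 7 (23.1% of the table). In 4 of the 7 (*Slc26a4*, *Cldn2*, *Gja1* and *Notum*) sample 1 was the highest and sample 3 the lowest of both genotypes, as in 8.84% of the table. The labels do not say that equal sample numbers share a day or a litter. Averaged over the 7 genes, the deviation from the genotype mean on the log2 scale was 1.15, 0.40 and -1.56 in the WT pools. In the *Slc6a4-/-* pools it was 0.26, 0.00 and -0.26. The drop from WT sample 1 to sample 3 was largest for *Slc26a4* (3.32), *Cldn2* (3.00) and *Best2* (2.85) and smallest for *Gja1* (2.33) and *Notum* (2.31), against a table median of 0.09. WT samples 1 and 2 were closer, at 0.59 to 0.85 apart.

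**Figure D3:**
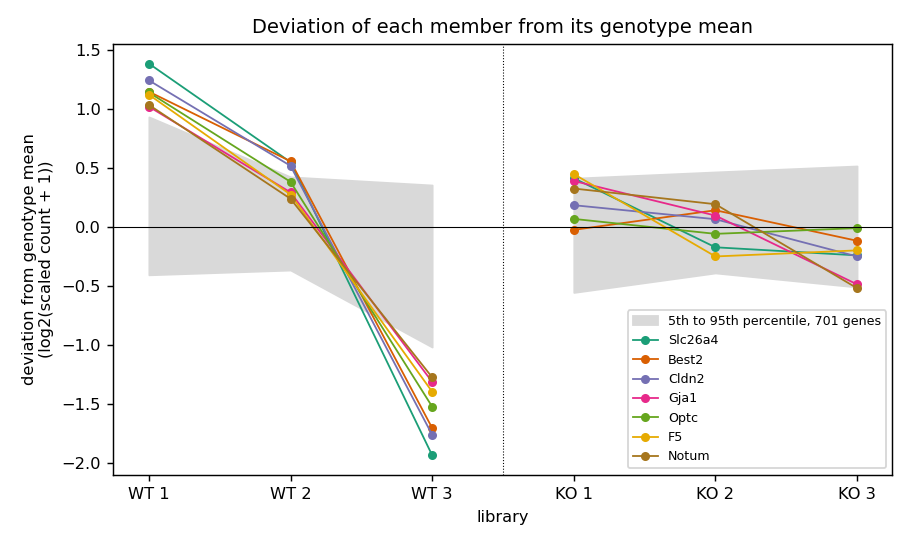
Deviation of each gene's log2(scaled count + 1) from the mean of its genotype, by pool, with a grey band from the 5th to the 95th percentile of the table and a line joining the values of 1 gene for legibility and no order implied between pools. All 7 lines run from above 0 in WT sample 1 to far below 0 in WT sample 3, with mean deviations of 1.15 and -1.56, while in *Slc6a4-/-* pools the mean stays between -0.26 and 0.26.

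How closely they moved together was measured by the root mean square (rms) difference between the deviations of 2 genes over the 6 libraries. Over the 21 pairs of the 7 genes it ran from 0.06 (*Gja1* and *Notum*) to 0.38 (*Slc26a4* and *Notum*), with a median of 0.26. The median over all pairs of the 574 genes with a mean of at least 50 was also 0.26, so that in absolute terms the 7 were no closer to each other than pairs of the table in general. Their deviations were larger, however, with a median rms size of 0.79 against 0.16 over the 574 genes, in a table whose selection favours low spread. Once the mean deviation of the other 6 genes was subtracted, 1.95% of the within-genotype variance of *Cldn2* was left, 3.76% of *Optc*, 4.92% of *Best2*, 5.59% of *F5*, 5.93% of *Slc26a4*, 7.03% of *Gja1* and 9.88% of *Notum*. The points share libraries and their scaling, and WT sample 3 has the largest deviation of each gene. Genes that share a very low library leave a small remainder by that alone, and these were picked with earlier results in view. The same remainder was not computed for other genes, so that no conclusion is drawn from it. The transport genes *Slc26a4* and *Best2* were each nearest to *Cldn2* (rms 0.16 and 0.12), and *Gja1* and *Notum* were nearest to each other.

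The 2 genes nearest in pattern to each of the 7 were sought among genes with a mean of at least 50, and those that were not themselves among the 7 were *Penk* to *Slc26a4* (rms 0.18) and to *F5* (0.12), *Slc6a13* to *Cldn2* (0.14), and *Colec12* to *Gja1* (0.06) and to *Notum* (0.10). For *Optc* they were *Mfap4* and *Ogn* (0.12 each), and for *F5* also *Fbln1* (0.11). *Slc6a13*, a GABA and taurine transporter, lay nearest to the mean profile of all 7 (0.05), with 1045, 575.7 and 164.0 scaled counts in WT and 1295, 1112 and 908.7 in *Slc6a4-/-*. *Colec12*, a scavenger receptor, and *Penk*, the precursor of enkephalins, came next (0.12 and 0.15). A drop from WT sample 1 to sample 3 at least as large as that of *Notum* was seen in 13 genes with a mean of at least 50, namely the 7 and *Penk*, *Fbln1*, *Slc6a13*, *Mfap4*, *Colec12* and *Ogn*. *Fbln1*, *Mfap4* and *Ogn* encode extracellular matrix proteins that are not particular to the ciliary epithelium, so that the pattern does not by itself assign the 7 genes to that cell type.

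The genotype difference was read against these libraries. Without WT sample 3 the differences were 0.78 (SE 0.47) for *Slc26a4*, 0.68 (0.30) for *Best2*, 0.68 (0.48) for *Notum*, 0.66 (0.48) for *F5*, 0.54 (0.45) for *Gja1*, 0.45 (0.38) for *Optc* and 0.42 (0.38) for *Cldn2*. These are geometric folds of 1.34 to 1.71, with all 7 still higher in *Slc6a4-/-*. Without WT sample 1 they were larger, from 1.71 for *Gja1* to 2.43 for *Slc26a4*. All 7 were then without overlap, as were 589 of the 701 genes in either direction, so that nothing is read from that count. Against WT sample 1 alone, the mean of the *Slc6a4-/-* pools was 1.05 to 1.31 times as high. *Slc6a4-/-* sample 3 lay between 0.809 (*Gja1*) and 1.20 (*Best2*) times WT sample 1, and above WT sample 2 for all 7, as for 58.1% of the table. The median difference over the 7 was 1.31, beside 0.30 over all 701 genes, and 0.66 without WT sample 3.

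**Figure D4:**
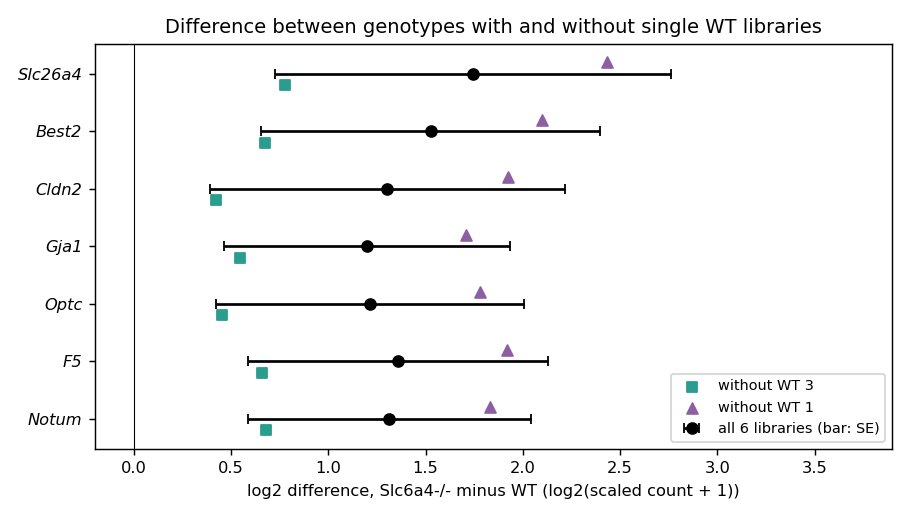
Log2 difference of *Slc6a4-/-* minus WT for the 7 genes with all samples (bars of 1 SE) and with single WT libraries left out. The values move from 0.42 to 0.78 without WT sample 3 up to 1.71 to 2.43 without WT sample 1, and all lie above 0.

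Other genes of the same pathways were taken from 8 lists of 210 genes, of which 34 besides the 7 were in the table. Of these, 32 had the higher mean in *Slc6a4-/-* (56.6% of the table) and 2 the lower. In 14 the groups did not overlap (60.1% of the table), and the median difference was 0.72. In 28 of the 34, WT sample 1 was highest and WT sample 3 lowest (34.8% of the table). In 14 of the 34, *Slc6a4-/-* sample 1 was the highest and sample 3 the lowest of that genotype (12.8% of the table). As the table holds only selected genes, listed genes outside it were not analysed here.

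Among 25 anion exchangers and bicarbonate transporters, 4 were present besides *Slc26a4*, all higher in mean and 3 without overlap. The sodium bicarbonate cotransporter *Slc4a4* differed by 0.43, the anion exchanger *Slc26a6* by 0.27 and the sodium-hydrogen exchanger *Slc9a3* by 0.87. *Slc26a7*, another anion exchanger, differed by 0.81 with overlap, at 554.8, 385.6 and 260.7 in WT and 800.4, 699.0 and 536.5 in *Slc6a4-/-*. Among 26 genes of chloride, sodium and water transport, 3 were present besides *Best2*. All 3 were highest in WT sample 1 and lowest in WT sample 3 (34.8% of the table). Among them, *Atp1b3*, a subunit of the sodium pump, differed by 0.54 and the potassium channel *Kcnj13* by 0.76. Of 27 tight junction genes *Cldn1* was present besides *Cldn2*, at 0.66, and of 23 gap junction genes none besides *Gja1*.

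Among 26 leucine-rich proteoglycan and vitreous genes, 10 were present besides *Optc*, of which 9 were higher in mean and 5 of those without overlap. *Ogn*, a relative of opticin, differed by 1.18 and the large proteoglycan *Vcan* by 1.08. The vitreous collagen chains *Col9a1*, *Col11a1* and *Col9a3* differed by 0.34, 0.48 and 0.57. *Nyx*, a leucine-rich protein of bipolar cell synapses, was the 1 gene lower in mean, by -0.19. Of 28 Wnt genes the table held *Nkd2* (0.92), *Wls* (0.53) and *Dkk3* (0.30) besides *Notum*. Of 32 further genes of the ciliary epithelium and retinal margin, 12 were present, 11 of them higher in mean and 3 of those without overlap. They included *Slc6a13* (1.24), the sulfate transporter *Slc13a4* (1.19) and *Mfrp* (0.82). Of the 12, 10 were highest in WT sample 1 and lowest in WT sample 3 (34.8% of the table). *Prss56*, a serine protease gene, had the largest difference of the 34, at 150.1, 134.5 and 88.3 in WT and 312.4, 513.2 and 603.8 in *Slc6a4-/-* (1.91, SE 0.37). *Crb1*, a polarity gene of photoreceptors and Müller glia, was lower without overlap (-1.06).

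**Figure D5:**
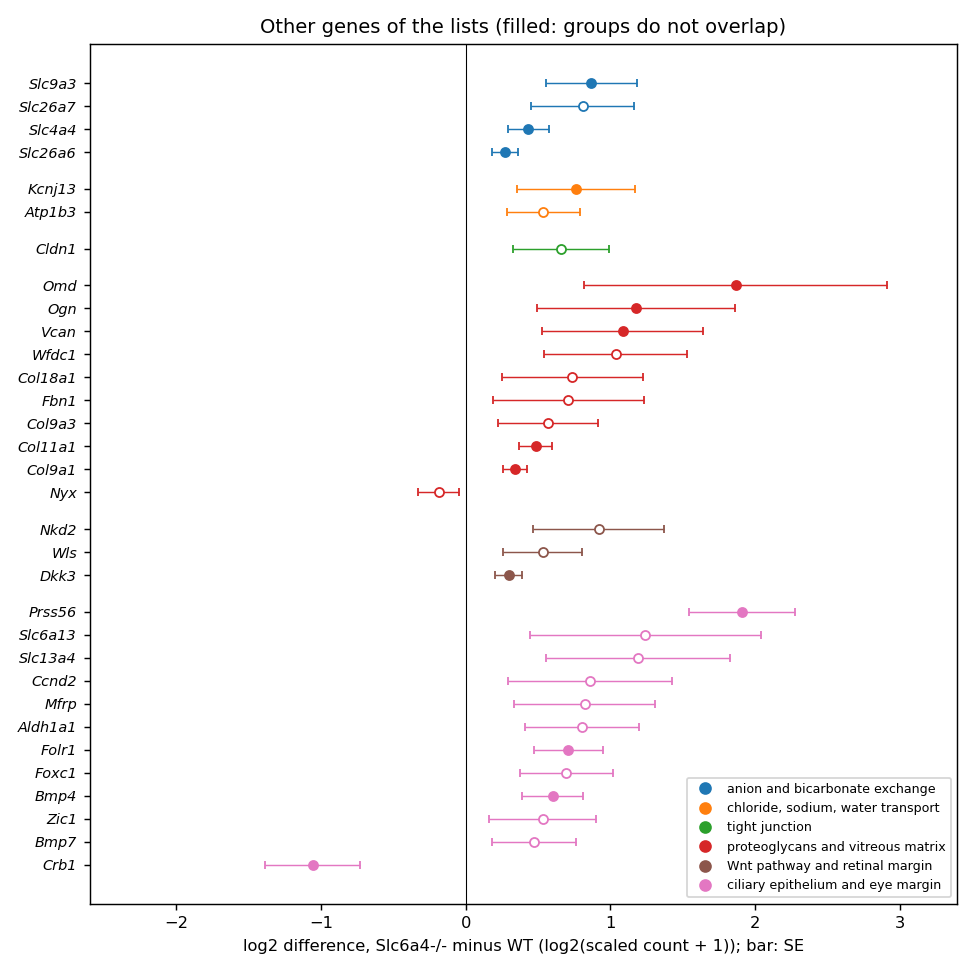
Log2 difference of *Slc6a4-/-* minus WT for 32 of the 34 listed genes in the table, grouped and coloured by list, with bars of 1 SE and filled points where the groups do not overlap. Of those drawn, *Nyx* and *Crb1* lie below 0 and the others above it, with values from -1.06 to 1.91.

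In the WT pools, markers of pigment cells moved with these values, and those of other tissues next to the retinal margin did so only in part. Of 16 pigment cell genes 6 were in the table (*Tyrp1*, *Dct*, *Pmel*, *Mlana*, *Gpnmb* and *Ptgds*), none at 0. All 6 were highest in WT sample 1 and lowest in WT sample 3 (34.8% of the table), and higher in mean in *Slc6a4-/-* (56.6%). Among the *Slc6a4-/-* pools, 2 of the 6 were highest in sample 1 and lowest in sample 3, as were 4 of the 7 genes (12.8% of the table). The summed level of the 6 was 2208 to 7343 in WT and 6253 to 10289 in *Slc6a4-/-*. Most of it was *Ptgds*, at 4823, 3115 and 1244 in WT and 6554, 5630 and 4005 in *Slc6a4-/-*. The paper also found GPNMB protein in most retinal ganglion cells of the VT retina. By its counts, such cells became fewer 2 days after crush in WT mice, whereas most were kept in mice lacking SERT. The part of ganglion cells in the *Gpnmb* values was not tested. The summed level of the 7 genes was 4164, 2445 and 661.3 in the WT pools, or 0.567, 0.504 and 0.300 of the pigment sum. In *Slc6a4-/-* samples it was 5855, 4613 and 4036, or 0.569, 0.452 and 0.645. The 7 genes were thus low in WT sample 3 also against this sum, which was mostly *Ptgds*, while the other 5 libraries lay between 0.452 and 0.645. Of 19 retinal pigment epithelium genes 5 were in the table. Of these, 3 were highest in WT sample 1 and lowest in WT sample 3, beside 34.8% of the table. Among the *Slc6a4-/-* pools, 3 of the 5 were highest in sample 1 and lowest in sample 3. All 5 were higher in mean in *Slc6a4-/-*. The 5 summed to 8808 to 11715 in WT and 10991 to 14006 in *Slc6a4-/-*. Of 17 fibroblast genes 3 were in the table, 1 of them (*Fbn1*) highest in WT sample 1 and lowest in WT sample 3. The 3 summed to 3535 to 8092 in WT and 7434 to 8224 in *Slc6a4-/-*. Most of that sum was *Fbn1*, at 6749, 3936 and 1961 in WT, which is also among the vitreous genes above. *Kcnj13*, *Bmp4* and *Dkk3* are likewise in both a pathway and a marker list. *Col6a1* was nearly level in WT, at 1173, 1314 and 1256. *Col1a1* was instead highest in WT sample 3, at 170.8, 117.7 and 317.5 in WT, and was lower in *Slc6a4-/-* (-1.23). Of 10 iris and ciliary muscle genes *Myl9* was present (0.50), and of 14 Müller glia and astrocyte genes *Gfap* (-0.39) and *Dkk3* (0.30). Of 26 retinal neuron genes the 4 named above were present, at 23259 to 32220 in WT and 18207 to 22596 in *Slc6a4-/-*. No listed gene of lens (20 genes), cornea and conjunctiva (12) or endothelium (12) was in the table. The part of these tissues in the values of the 7 genes was not tested.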

How the data were processed

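Peripheral VT retina was sequenced in 3 WT and 3 *Slc6a4-/-* samples after ONC. The authors made total RNA libraries depleted of ribosomal RNA, stranded per the labels. Per the paper's methods they aligned reads to GRCm38 and counted them per gene in CLC Genomics Workbench 20.0. The deposited table gives raw read counts for 701 genes selected at a p-value under 0.05. It also holds the authors' mean RPKM of the higher genotype, used below, and their fold changes and p-values, which were not used. The commas in the counts were removed, and 25 blank lines were skipped. All 6 sample columns were used.

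The table sums are not the depth. Library totals were recovered by least squares from the counts, the authors' deposited RPKM (at least 2) and exon lengths of GENCODE M21 on GRCm38. The fit used 66 of 125 genes with a higher mean count in WT. For *Slc6a4-/-* it used 62 of 158 genes whose mean count was more than 1.35 times that in WT. The genes used were those within 0.8%, a limit that bounds the residual SD of 0.153% and 0.123%. On counts simulated for the 701 genes the largest error of a total was 1.09% over 20 runs. There, part of the exon lengths were exact and the others had random errors. Biased lengths were not simulated. The SE of the totals was 0.215% to 0.495%, which covers fitting error only. Counts were divided by the total over the geometric mean total, and 1 was added before log2. All 701 identifiers had a position, and no 2 libraries were equal (2 to 11 genes with equal counts over 15 pairs).

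No count test was run, by choice, since selection on this contrast decided which genes the table holds. The members and lists were chosen with earlier results of these data known. Genes were named as members, list genes, the 2 nearest to each member in rms difference among genes with a mean scaled count of at least 50, and those nearest the shared profile. The values of 2 list genes are not reported here. Alternatives were median-of-ratios or TMM factors over the table, no scaling, added values of 0.5 and 5, a count minimum of 10 and leaving out each sample. Python 3.11.15, numpy 2.4.6, pandas 2.3.3 and matplotlib 3.10.9 were used.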

Additional observations from a re-analysis of the deposited data

How the results depend on the processing

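All 7 genes stayed higher in *Slc6a4-/-* under all 11 other scalings, added values and left-out samples tried. Scaling by median-of-ratios moved the median of the 701 genes from 0.30 to 0.14 and no scaling moved it to 0.47, where 443 genes rather than 397 were higher. Of the 7 genes, those without overlap numbered 2 with median-of-ratios, 2 with TMM factors (*Optc* lost in both), 4 with no scaling (*F5* gained), and 3 to 7 when 1 sample was left out (7 without WT sample 1, 6 without *Slc6a4-/-* sample 3). Of the 701 genes, 403, 444 and 376 did not overlap in either direction under those scalings, in that order. Without WT sample 1 it was 589, and without *Slc6a4-/-* sample 3 it was 556. Leaving out 1 sample gave log2 differences of 0.78 to 2.43 for *Slc26a4*, 0.68 to 2.10 for *Best2*, 0.42 to 1.92 for *Cldn2*, 0.54 to 1.71 for *Gja1*, 0.45 to 1.78 for *Optc*, 0.66 to 1.92 for *F5* and 0.68 to 1.83 for *Notum*. The SD among WT pools ran over 0.59 to 2.35 for *Slc26a4*, 0.42 to 2.01 for *Best2*, 0.51 to 2.12 for *Cldn2*, 0.51 to 1.65 for *Gja1*, 0.54 to 1.88 for *Optc*, 0.60 to 1.78 for *F5* and 0.56 to 1.63 for *Notum*, each time lowest without WT sample 3. Among *Slc6a4-/-* pools it ran over 0.0483 to 0.46 for *Slc26a4*, 0.0653 to 0.18 for *Best2*, 0.0839 to 0.31 for *Cldn2*, 0.21 to 0.62 for *Gja1*, 0.0342 to 0.0895 for *Optc*, 0.0364 to 0.49 for *F5* and 0.0939 to 0.60 for *Notum*. That SD depended on the scaling for *Best2* (0.0786 with median-of-ratios, 0.0783 with TMM, 0.208 with no scaling, 0.13 as reported) and *Optc* (0.163, 0.117, 0.146 and 0.06); the cause was not tested. The labels do not say that equal sample numbers share a day, so that the samples were not taken as pairs. The correlation of deviations over 574 genes was 0.44, -0.14 and 0.22 for equal numbers 1, 2 and 3. It was -0.28 for WT sample 1 with *Slc6a4-/-* sample 3, and -0.41 for WT sample 3 with *Slc6a4-/-* sample 1. The other unequal pairs ran from -0.06 to 0.12. Deviations within a genotype depend on each other, so these values cannot decide whether equal numbers share a batch. With the replicate block, added after seeing the data, the differences were the same (1.20 to 1.74), their SE was 0.42 to 0.85 in place of 0.73 to 1.02, and 4 of the 7 (*Slc26a4*, *Gja1*, *F5* and *Notum*) reached 2 SE. The block pairs samples by number, which the labels do not support, and each SE rests on only 3 differences. The share of the table reaching 2 SE with the block was not computed, so that nothing is read from that count. With 3 pools per genotype and a table selected on the contrast, the spread between WT pools limits the precision, and *Notum*, with 12 reads in WT sample 3, is the one most limited by depth.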
